A study of Mus musculus with 9 samples.

Results

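Glycolysis and the pentose phosphate pathway were followed through 34 genes in cultured mouse macrophages. The members were the rows of the deposited expression table whose gene name was on a list of sugar transport, glycolytic, lactate, pyruvate and pentose phosphate genes with Hif1a and Bnip3, and they made up 34 of the 46078 genes of the table. FLM_G were fetal liver macrophages grown in high-glucose Dulbecco medium with 10% fetal bovine serum and, as growth factor, 30 ng/ml of recombinant mouse GM-CSF (granulocyte-macrophage colony-stimulating factor). FLM_M were fetal liver macrophages grown in 50% Dulbecco medium, 20% fetal bovine serum and 30% supernatant of L cells, which supplies M-CSF, the macrophage colony-stimulating factor. BMM were bone marrow macrophages, whose medium the labels do not give. All came from C57BL/6J mice, the livers from fetuses of gestational day 15 to 19, and all had been kept in culture for at least 8 weeks. Dulbecco medium as listed for both fetal liver cultures carried L-glutamine at 584 mg/l, sodium pyruvate at 110 mg/l and glucose at 4.5 g/l. It made up 50% of the FLM_M medium, so the sugar supplied may have differed between the fetal liver cultures. Each culture was represented by 3 libraries from wells of 250000 cells. No label ties these wells to separate animals or cultures, and the p-values below therefore rest on the variation from library to library, which may be technical. Growth factor, serum, L-cell supernatant and the share of Dulbecco medium differed together between FLM_G and FLM_M, so that their contributions cannot be told apart. Tissue and sex-linked genes differed together between the fetal liver cultures and BMM, whose medium and growth factor are not given and may differ too. The contributions of all these to the comparisons with BMM cannot be told apart either.

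Glycolysis splits glucose into pyruvate in the cytosol, and lactate dehydrogenase turns pyruvate into lactate, which leaves the cell through monocarboxylate transporters. The pentose phosphate pathway branches off at glucose 6-phosphate: its oxidative arm makes NADPH, which macrophages use for lipid synthesis, antioxidant defence and the phagocyte oxidase, and its non-oxidative arm returns sugars to glycolysis. Several steps are coded by isozyme genes with different regulation, and HIF-1, the transcription factor that contains the Hif1a product, raises many of these genes in hypoxic or inflamed macrophages.

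Levels are FPKM (fragments corrected for transcript length and library depth) scaled between libraries by TMM factors, so that levels of different genes can be compared per length. Each change is a difference of log2(FPKM + 1), a scale that makes changes of low genes look smaller than they are, and a gene was called at a limma adjusted p (Benjamini-Hochberg over 11952 genes) under 0.05. Reads per library, estimated from the smallest steps of the FPKM values, came to between 28560000 and 35680000. All 8 macrophage markers reached 1 FPKM in each group. Of the 6 hepatocyte markers 4, Alb among them, were at 0 in every group, while Trf, also expressed by macrophages, stood at 127 FPKM in FLM_G, 31.7 in FLM_M and 5.01 in BMM. Afp went the other way, with 0.910 FPKM in FLM_G, 2.19 in FLM_M and 1.79 in BMM. Of 6 granulocyte markers only S100a8 reached 1 FPKM in FLM_G (53.3), in FLM_M (11.0) and in BMM (1.94), the 4 lymphocyte markers were at 0, and no erythroid, fibroblast, mast cell or dendritic cell marker reached 1 FPKM. Of 4 endothelial markers, Cdh5 reached it in FLM_G (4.28) and Kdr in FLM_M (6.63), and none did in BMM. Xist averaged 48.5 FPKM in FLM_G, 70.9 in FLM_M and 0.0020 in BMM, and the Y-linked Eif2s3y 0 in FLM_G and FLM_M and 11.0 in BMM, so sex moved with the tissue of origin. The part of sex, or of these marker levels, in the results below was not tested. In RNA from whole cultures, fewer cells of a kind and less RNA per cell cannot be told apart.

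The members did not move as 1 block. In FLM_G against BMM, most genes of the glycolytic chain were lower, whereas Aldoc, Hk2, Ldhb, Pdha1 and Rpia were higher. Tkt and Taldo1 were higher too, but were not called without scaling. The rise of Rpe was not called without scaling or in 5 of the 9 fits that left out 1 library, and the deposited counts called Rpe lower. In FLM_M against BMM 25 of the 33 members tested were lower, G6pdx, Pgd, Tkt and Taldo1 of the pentose phosphate pathway among them. FLM_G exceeded FLM_M in G6pdx, Pgd, Rpia, Tkt and Taldo1 and in Aldoc, Ldhb and Pdha1, and was below it in Hk3, Pfkm, Tpi1 and Pkm. Of the 34 members 33 passed the filter of 1 FPKM in at least 3 libraries, Eno2 being the one that did not.

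In FLM_G against BMM 10 members were called higher and 18 lower, with 5 not called. Of all genes tested in that comparison 33.8% were higher and 34.1% lower, and the median log2 fold change was -0.37 over the members and 0.00 over all genes. Without scaling, which moved the median gene by -0.34, the members divided into 5 higher and 23 lower. In FLM_M against BMM 3 members (Hk3, Pfkm and Rpia) were called higher and 25 lower, against backgrounds of 22.7% higher and 21.9% lower. Here the median was -0.54 over the members and 0.00 over all genes, and without scaling the calls were 3 higher and 24 lower. In FLM_G against FLM_M 15 members were higher and 8 lower, against 35.5% and 35.1% of all genes, with medians of 0.30 and 0.00. That split depended on the scaling: without it the median gene moved by -0.39 and the members divided into 10 higher and 14 lower. The shares of all genes given here are those with scaling and do not apply to the counts without it. On the deposited counts, which are shallow and were fitted as an alternative, edgeR lost 37 of these calls and gave 10 values of the opposite sign. Members with too few counts were dropped from the edgeR fit, so a call not listed here was not necessarily kept. The lost calls in FLM_G against BMM were those of Slc2a1, Hk1, Hk2, Pfkl, Aldoa, Pgk1, Ldha, Slc16a3, Pdk1, Pdha1, G6pdx, Pgd and Hif1a. In FLM_M against BMM they were those of Gpi1, Pfkl, Pfkm, Aldoa, Tpi1, Pgk1, Pgam1, Eno1, Pkm, Ldha, Pdk1, Pgls, Tkt, Taldo1 and Hif1a, and in FLM_G against FLM_M those of Slc2a1, Hk1, Hk2, Pfkm, Pgk1, Pgam1, Ldha, G6pdx and Pgls. The pairs of comparisons share libraries, FLM_G, FLM_M or BMM, and so are not independent of each other.

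**Figure D1:**
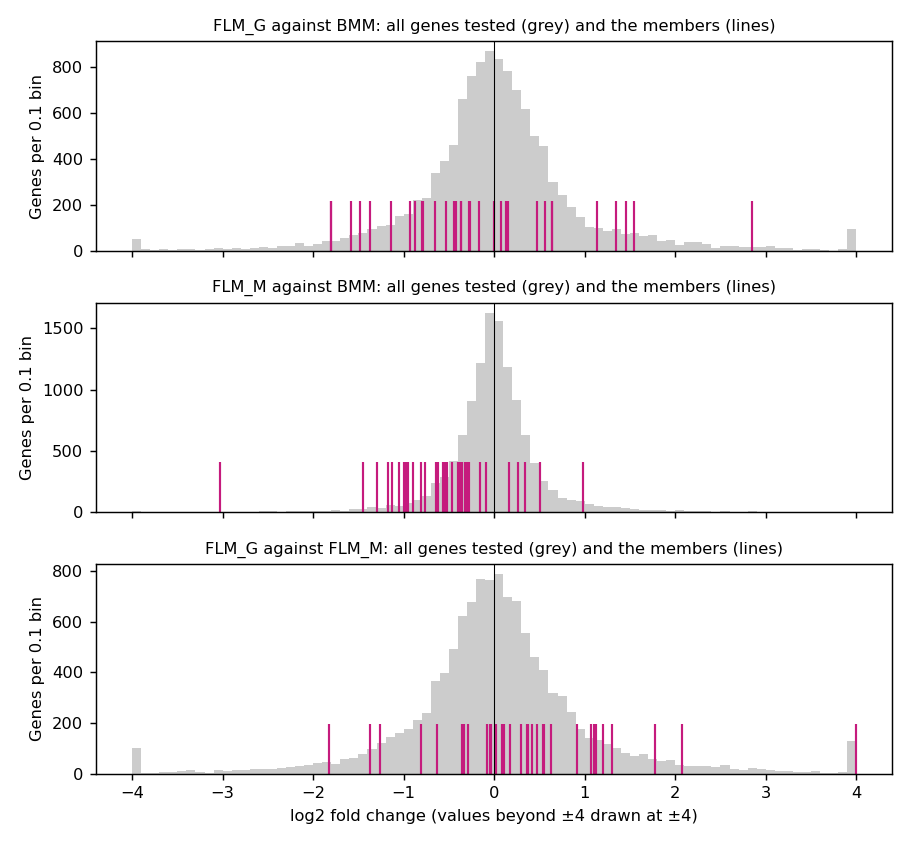
Number of genes per bin of 0.1 in log2 fold change (grey bars, 11952 genes tested) in FLM_G against BMM, FLM_M against BMM and FLM_G against FLM_M, with a pink line for each of the 33 members tested. In FLM_M against BMM most lines lie left of 0 (25 called lower, 3 higher), and in FLM_G against FLM_M more lie right of 0 (15 called higher, 8 lower, or 10 and 14 without scaling).

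**Figure D2:**
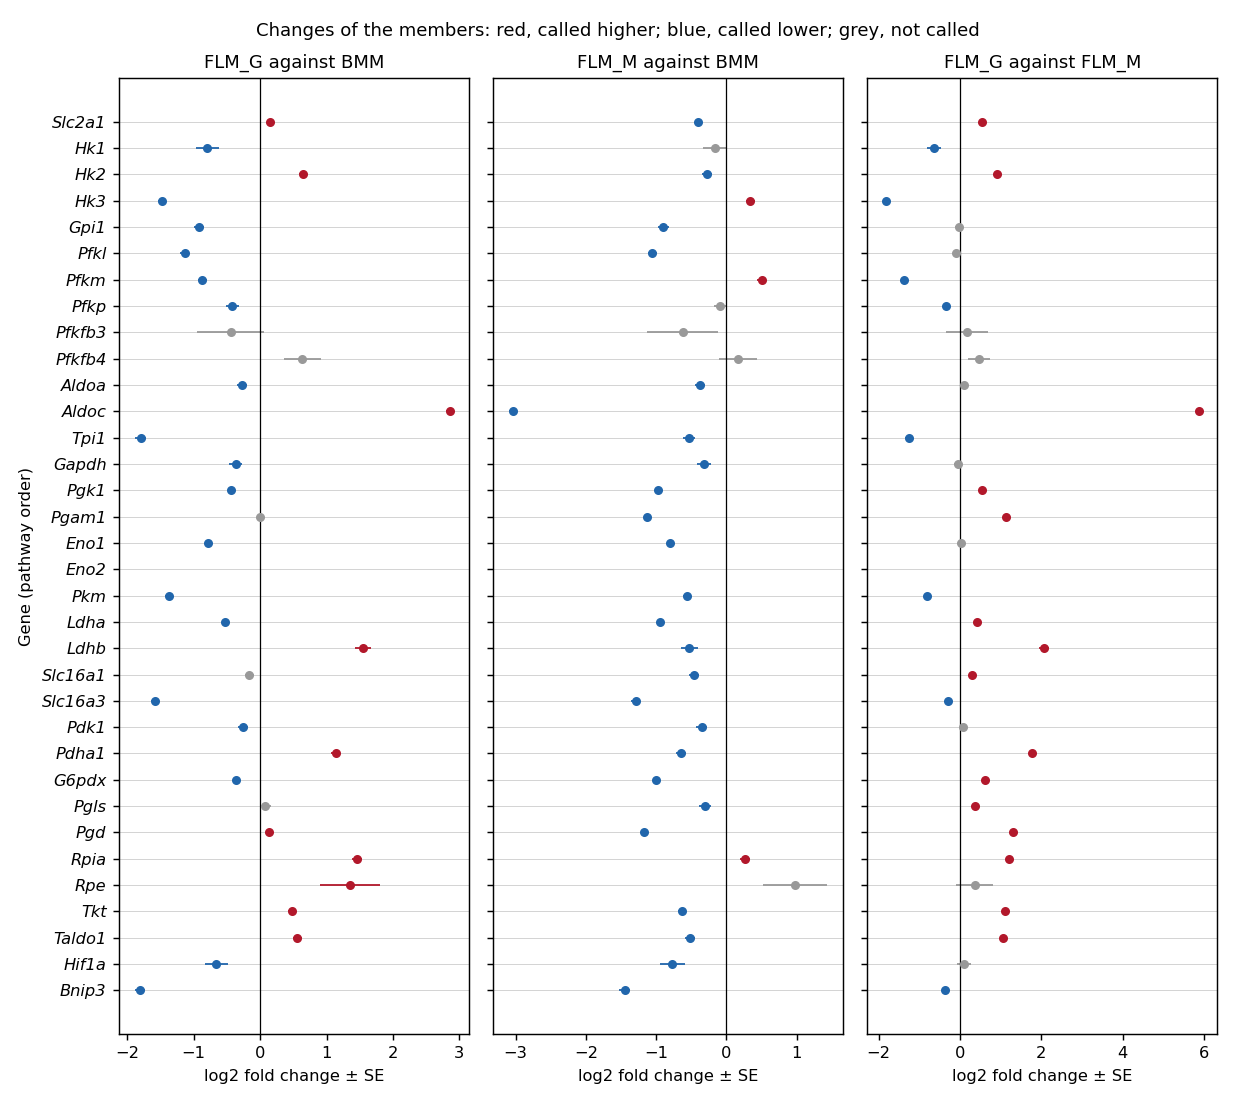
log2 fold change of each member with its standard error from limma, in pathway order, in the 3 comparisons. Red points were called higher and blue points lower at an adjusted p under 0.05, and Eno2, which failed the filter, has no point. The horizontal scales differ between the panels.

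Hif1a, the regulated subunit of HIF-1, was lower in both fetal liver cultures than in BMM. It stood at 13.5, 10.3 and 7.54 FPKM in the FLM_G libraries, 10.9, 8.38 and 8.98 in FLM_M, and 16.8, 16.9 and 16.3 in BMM. No fetal liver library reached the lowest BMM library, while FLM_G and FLM_M overlapped. The log2 fold change was -0.66 (SE 0.17, limma adjusted p = 0.00868) in FLM_G against BMM, -0.77 (SE 0.17, adjusted p = 0.00671) in FLM_M against BMM and 0.11 (SE 0.17, adjusted p = 0.595) in FLM_G against FLM_M. Bnip3, a mitochondrial protein of mitophagy and a well-known HIF-1 target, was at 4.84, 5.28 and 4.54 FPKM in FLM_G, 6.58, 6.15 and 6.86 in FLM_M, and 20.3, 20.5 and 17.8 in BMM. The 3 groups did not overlap, with BMM far above both others. Bnip3 fell by 1.80 (SE 0.07, limma adjusted p = 5.84e-08) on the log2 scale in FLM_G and by 1.45 (SE 0.07, adjusted p = 6.9e-07) in FLM_M, each against BMM, and FLM_G was 0.36 lower than FLM_M (log2 fold change -0.36, SE 0.07, adjusted p = 0.00239). DESeq2 on the deposited counts called neither fall from BMM (-1.05 and adjusted p = 0.473 in FLM_G, -1.36 and adjusted p = 0.359 in FLM_M).

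The stretch upstream of the start sites of the members was searched for the core of the HIF response element, ACGTG or GCGTG on either strand, and for CACGTG, which contains ACGTG. In windows of 250 bases before each RefSeq start (RefSeq promoters, GRCm38.p6), 30 of the 34 members (88.2%) had at least 1 core in at least 1 window, against 41.5% of all 27025 genes with a window and 62.8% of the 8198 of these that were tested here. CACGTG occurred in 6 members (17.6%), against 6.9% of all genes and 10.5% of those tested. Genes with more windows have more room for a match, and the members had more windows per gene. Counted by window, a core was in 79.2% of the members' 48 windows, 38.6% of all windows and 56.8% of those of tested genes. CACGTG was in 12.5%, 6.0% and 8.8% of the same windows. The median GC content was 60.4% in the members' windows, 52.4% in all windows and 59.6% in those of tested genes, and the core is itself rich in C and G. A match describes letters, not a bound site. Printed below are the windows of genes that the results turn on, with matches in capitals: Bnip3 and Slc16a3, among the 3 largest falls both in FLM_G and in FLM_M against BMM, Ldha, and 3 isozyme genes that went different ways. They were chosen after the matches were seen, and members with large falls can hold fewer, as with Pfkl (1 core) and Tpi1 (0 cores). Ldha has another annotated start, which is not shown.
Bnip3, chr7:138909507-138909756, minus strand: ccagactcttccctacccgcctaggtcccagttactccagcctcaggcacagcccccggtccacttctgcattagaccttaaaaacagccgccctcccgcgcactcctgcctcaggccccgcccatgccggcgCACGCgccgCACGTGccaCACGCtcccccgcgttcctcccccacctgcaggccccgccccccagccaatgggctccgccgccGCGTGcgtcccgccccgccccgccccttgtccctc
Slc16a3, chr11:120948817-120949066, plus strand: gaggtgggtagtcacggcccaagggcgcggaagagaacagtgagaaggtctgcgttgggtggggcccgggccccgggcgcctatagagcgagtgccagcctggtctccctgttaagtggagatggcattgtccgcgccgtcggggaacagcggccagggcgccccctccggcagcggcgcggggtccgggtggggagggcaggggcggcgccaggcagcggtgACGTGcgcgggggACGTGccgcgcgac
Ldha, chr7:46845554-46845803, plus strand: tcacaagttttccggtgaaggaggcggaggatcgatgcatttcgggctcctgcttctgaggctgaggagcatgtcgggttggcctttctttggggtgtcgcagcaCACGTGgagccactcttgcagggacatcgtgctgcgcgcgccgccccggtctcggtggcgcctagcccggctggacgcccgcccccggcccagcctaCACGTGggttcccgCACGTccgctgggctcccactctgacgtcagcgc
Hk2, chr6:82774455-82774704, minus strand: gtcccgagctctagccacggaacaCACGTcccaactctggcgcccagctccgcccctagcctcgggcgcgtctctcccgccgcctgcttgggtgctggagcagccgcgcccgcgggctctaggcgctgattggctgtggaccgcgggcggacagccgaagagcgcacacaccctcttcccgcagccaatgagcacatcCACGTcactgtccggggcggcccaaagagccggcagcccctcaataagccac
Hk3, chr13:55021386-55021635, minus strand: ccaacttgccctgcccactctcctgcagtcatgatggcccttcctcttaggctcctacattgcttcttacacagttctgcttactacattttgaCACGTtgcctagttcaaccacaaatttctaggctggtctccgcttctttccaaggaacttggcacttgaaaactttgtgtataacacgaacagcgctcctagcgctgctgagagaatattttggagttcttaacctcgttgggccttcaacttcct
Ldhb, chr6:142507958-142508207, minus strand: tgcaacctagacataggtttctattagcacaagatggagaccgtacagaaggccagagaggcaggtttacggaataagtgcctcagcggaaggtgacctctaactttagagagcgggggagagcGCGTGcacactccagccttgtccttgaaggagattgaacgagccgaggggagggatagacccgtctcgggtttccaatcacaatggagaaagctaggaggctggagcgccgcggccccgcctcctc
The windows of Bnip3 and Ldha held 5 cores each, where each CACGTG counts as 2 because it reads as ACGTG on both strands, those of Hk2 and Slc16a3 2 each, and those of Hk3 and Ldhb 1 each.

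**Figure D3:**
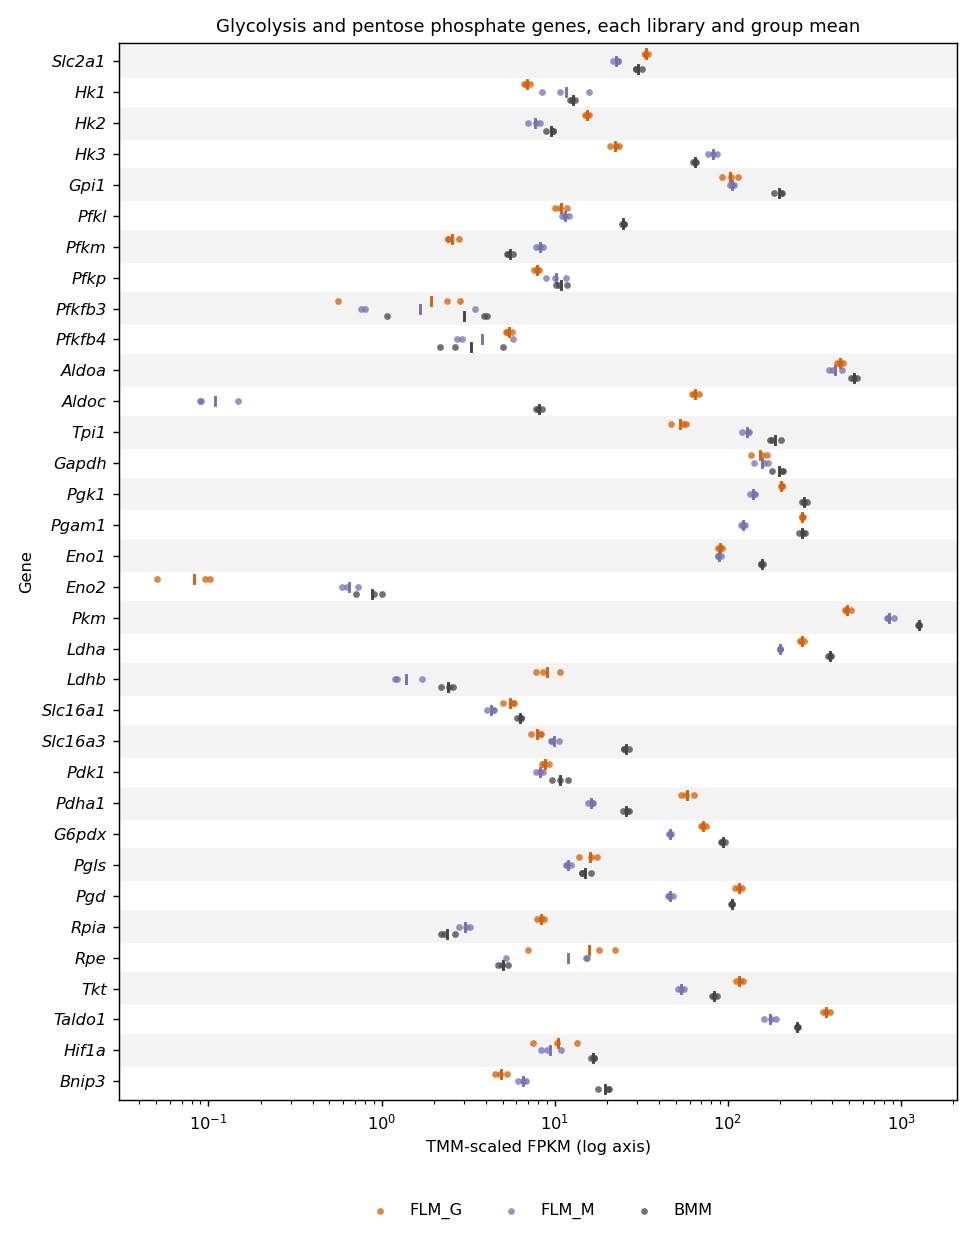
Scaled FPKM (log axis) of the 34 members in pathway order; points are the 3 libraries of FLM_G, FLM_M and BMM and short vertical lines the group means. Aldoc spans the widest range, with means of 64.6 FPKM in FLM_G, 0.11 in FLM_M and 8.09 in BMM. Pfkfb3 is widely spread in each group, Pfkfb4 in FLM_M and BMM, and Rpe in FLM_G and FLM_M.

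Among transporters, Slc2a1, the GLUT1 glucose carrier, was at 33.2, 34.7 and 33.0 FPKM in FLM_G, 23.1, 23.1 and 21.6 in FLM_M, and 29.5, 31.7 and 29.3 in BMM. FLM_M lay below both other groups, and all FLM_G libraries were above all BMM libraries by a small margin. The log2 fold change in FLM_M against BMM was -0.40 (SE 0.05, limma adjusted p = 0.000229) and in FLM_G against FLM_M 0.55 (SE 0.05, adjusted p = 1.12e-05), or 0.08 without scaling (adjusted p = 0.167). The difference of 0.15 (SE 0.05, adjusted p = 0.0242) between FLM_G and BMM turned to -0.26 without scaling (adjusted p = 0.00171), and its call was lost without BMM replicate 1 (0.13, adjusted p = 0.0954), BMM replicate 3 (0.12, adjusted p = 0.106) or FLM_G replicate 2 (0.15, adjusted p = 0.0573).

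Hexokinases, which trap glucose as glucose 6-phosphate, showed a shift between isozymes in FLM_G, with Hk3 still the highest of them. Hk2, the inducible form bound to mitochondria, was at 14.9, 15.8 and 15.4 FPKM in FLM_G, 8.17, 7.04 and 7.79 in FLM_M, and 9.72, 9.83 and 8.89 in BMM. Hk3, a form of myeloid cells, was at 22.6, 20.8 and 23.6 in FLM_G, 81.8, 86.3 and 76.9 in FLM_M, and 62.7, 65.5 and 64.2 in BMM. FLM_G thus had the highest Hk2 and the lowest Hk3, with no overlap of groups in either gene. Hk2 rose by 0.64 on the log2 scale in FLM_G against BMM (SE 0.06, limma adjusted p = 2.51e-05) and fell by 0.28 in FLM_M against BMM (SE 0.06, adjusted p = 0.00797). Hk3 fell by 1.48 in FLM_G against BMM (SE 0.06, adjusted p = 4.97e-08) and rose by 0.34 in FLM_M against BMM (SE 0.06, adjusted p = 0.0017). Between the fetal liver cultures, FLM_G against FLM_M, the changes were 0.92 for Hk2 (SE 0.06, adjusted p = 1.91e-06) and -1.83 for Hk3 (SE 0.06, adjusted p = 1.11e-08). On the deposited counts neither rise of Hk2 in FLM_G was called. Against BMM edgeR gave 0.97 (adjusted p = 0.0641) and DESeq2 0.91 (adjusted p = 0.276). Against FLM_M edgeR gave 0.75 (adjusted p = 0.11) and DESeq2 0.76 (adjusted p = 0.311).

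Hk1, the widely expressed form, was at 7.20, 6.64 and 6.83 FPKM in FLM_G, 10.7, 8.40 and 15.7 in FLM_M, and 13.2, 12.6 and 12.3 in BMM. It was lowest in FLM_G and spread widely in FLM_M, around the BMM values. Hk1 fell by 0.79 in FLM_G against BMM (SE 0.17, limma adjusted p = 0.00331) and was 0.64 lower in FLM_G than in FLM_M (log2 fold change -0.64, SE 0.17, adjusted p = 0.00991). The FLM_M difference from BMM of -0.16 (SE 0.17, adjusted p = 0.495) became -0.37 (adjusted p = 0.0188) without FLM_M replicate 3. As a share of the summed FPKM of the 3 genes, Hk2 made up 34.5 ± 1.8% in FLM_G, 7.60 ± 0.61% in FLM_M and 11.0 ± 0.5% in BMM (SD, n = 3 each). Hk3 made up 50.1 ± 1.7% in FLM_G, 80.9 ± 4.1% in FLM_M and 74.3 ± 1.0% in BMM. Hk1 shares overlapped in each pair of groups, at 15.5 ± 0.6% in FLM_G, 11.5 ± 3.8% in FLM_M and 14.7 ± 0.6% in BMM. Hkdc1, a further hexokinase gene, was at 0 in all 9 libraries.

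Shares of isozymes do not depend on the scaling between libraries. With 3 libraries against 3, the exact 2-sided permutation test cannot give a p under 0.1, and over the 33 tests of shares the smallest Benjamini-Hochberg value was 0.132, so none can pass a threshold of 0.05 and shares are given by mean, SD and overlap.

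**Figure D4:**
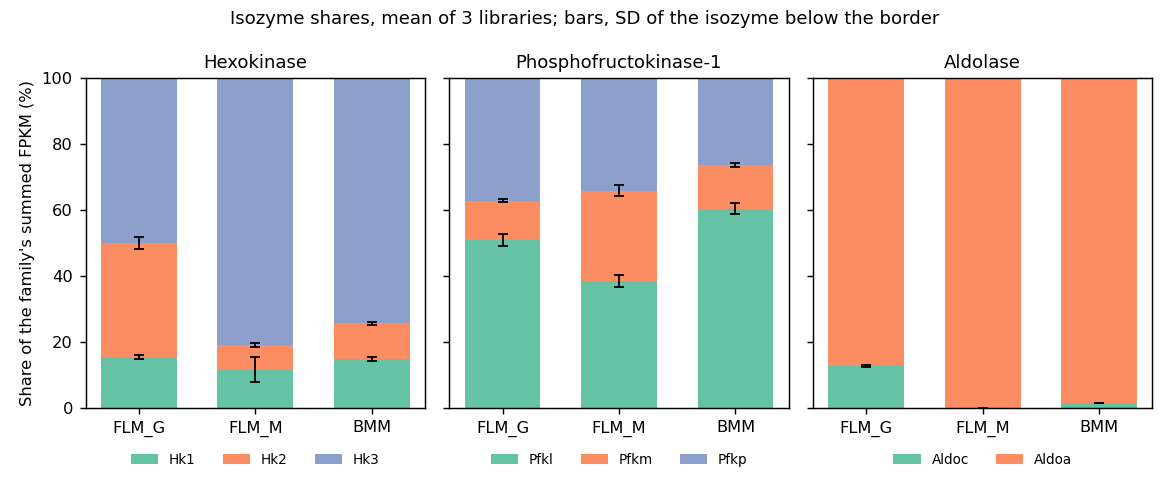
Share of each isozyme in the summed FPKM of its family (%), as the mean of 3 libraries in FLM_G, FLM_M and BMM; error bars are the SD of the isozyme below the border. Hk2 takes 34.5% of the hexokinase FPKM in FLM_G, against 7.60% in FLM_M and 11.0% in BMM, and Aldoc 12.7% of the aldolase FPKM in FLM_G, against 0.026% in FLM_M and 1.49% in BMM.

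Gpi1, glucose 6-phosphate isomerase, was lower in both fetal liver cultures. It had 92.7, 104 and 114 FPKM in FLM_G, 108, 105 and 103 in FLM_M, and 185, 205 and 202 in BMM. FLM_G and FLM_M overlapped and both lay below BMM, with a limma log2 change of -0.93 in FLM_G (SE 0.08, adjusted p = 5.93e-06) and of -0.90 in FLM_M (SE 0.08, adjusted p = 1.78e-05). FLM_G and FLM_M differed by -0.03 (adjusted p = 0.72), or by -0.51 without scaling (adjusted p = 0.000124).

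Of the isozymes of phosphofructokinase-1, the main control point of glycolysis, the liver form fell in both fetal liver cultures. Pfkl was at 10.0, 10.7 and 11.7 FPKM in FLM_G, 12.1, 11.0 and 11.4 in FLM_M, and 25.2, 25.2 and 24.3 in BMM. Its fall was of similar size in both fetal liver cultures, by 1.14 on the log2 scale in FLM_G against BMM (SE 0.06, limma adjusted p = 4.15e-07) and by 1.05 in FLM_M against BMM (SE 0.06, adjusted p = 1.81e-06). Between FLM_G and FLM_M it differed by -0.08 (SE 0.06, adjusted p = 0.267), or by -0.53 without scaling (adjusted p = 4.18e-05). The muscle isozyme Pfkm went opposite ways, with 2.41, 2.43 and 2.81 FPKM in FLM_G, 8.22, 8.54 and 7.78 in FLM_M, and 5.31, 5.78 and 5.37 in BMM. The groups did not overlap: Pfkm fell by 0.87 in FLM_G against BMM (SE 0.07, adjusted p = 3.53e-06), rose by 0.50 in FLM_M against BMM (SE 0.07, adjusted p = 0.000298), and was lower in FLM_G than in FLM_M by 1.37 (log2 fold change -1.37, SE 0.07, adjusted p = 1.33e-07).

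The platelet isozyme Pfkp was at 8.09, 7.57 and 7.88 FPKM in FLM_G, 11.6, 10.0 and 8.91 in FLM_M, and 10.6, 10.1 and 11.8 in BMM. FLM_G was lowest, and FLM_M and BMM overlapped. Pfkp fell by 0.42 in FLM_G against BMM (SE 0.09, limma adjusted p = 0.00354) and was lower than in FLM_M by 0.33 (log2 fold change -0.33, SE 0.09, adjusted p = 0.0107), and FLM_M did not pass against BMM (-0.09, adjusted p = 0.494). In shares of the family, Pfkl held 50.9 ± 1.9% in FLM_G, 38.5 ± 1.9% in FLM_M and 60.4 ± 1.6% in BMM, and Pfkm 12.0 ± 0.5% in FLM_G, 27.5 ± 1.6% in FLM_M and 13.3 ± 0.6% in BMM. Pfkp held 37.1 ± 2.2% in FLM_G, 34.03 ± 2.36% in FLM_M and 26.3 ± 2.0% in BMM.

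The PFKFB enzymes set the level of fructose 2,6-bisphosphate, the activator of phosphofructokinase-1. Pfkfb3 varied widely within each group, and Pfkfb4 within FLM_M and BMM but not FLM_G. Pfkfb3 was at 2.85, 0.563 and 2.40 FPKM in FLM_G, 3.47, 0.757 and 0.801 in FLM_M, and 3.88, 4.07 and 1.08 in BMM. Pfkfb4 was at 5.25, 5.30 and 5.68 in FLM_G, 2.90, 2.72 and 5.78 in FLM_M, and 2.65, 2.17 and 5.03 in BMM. In each group of Pfkfb3, and in FLM_M and BMM for Pfkfb4, 1 library stood apart from both others, and the groups of Pfkfb3 overlapped. For Pfkfb4, all FLM_G libraries lay above all BMM libraries, while FLM_M overlapped both groups. No comparison was called for Pfkfb3, which changed by -0.44 in FLM_G against BMM (SE 0.51, limma adjusted p = 0.46), by -0.62 in FLM_M against BMM (SE 0.51, adjusted p = 0.358) and by 0.18 in FLM_G against FLM_M (SE 0.51, adjusted p = 0.768). Pfkfb4 was not called either, with a log2 fold change of 0.64 in FLM_G against BMM (SE 0.28, adjusted p = 0.0696) that became 0.90 (adjusted p = 0.0122) without BMM replicate 3, was called without FLM_M replicate 3 (0.63, adjusted p = 0.0308) and was called with only the 6 libraries compared (0.62, adjusted p = 0.0472). In FLM_G against FLM_M it was 0.47 (SE 0.28, adjusted p = 0.158), and leaving out FLM_M replicate 3 gave 0.74 (adjusted p = 0.0266). The deposited counts called Pfkfb4 higher in FLM_G against BMM (2.06 and adjusted p = 0.00148 with edgeR, 2.08 and adjusted p = 0.0234 with DESeq2) and, with edgeR, in FLM_G against FLM_M (1.32, adjusted p = 0.0144). The Pfkfb4 share of the pair was 75.2 ± 13.5% in FLM_G, 70.6 ± 22.1% in FLM_M and 52.6 ± 25.9% in BMM.

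Aldolase, which cleaves fructose 1,6-bisphosphate, held the largest change of the list. Aldoc (ENSMUSG00000017390, GRCm38 chromosome 11, 78322968 to 78327781, plus strand), the isozyme best known from brain, was at 63.6, 62.3 and 68.1 FPKM in FLM_G, 0.0899, 0.148 and 0.0912 in FLM_M, and 7.77, 8.03 and 8.48 in BMM. The 3 groups were far apart, and FLM_M was near 0. The log2 fold change was 2.85 in FLM_G against BMM (SE 0.06, limma adjusted p = 5.39e-10), -3.03 in FLM_M against BMM (SE 0.06, adjusted p = 1.69e-09) and 5.89 in FLM_G against FLM_M (SE 0.06, adjusted p = 9.2e-12). Aldoa, the main aldolase gene of these cells, was at 425, 442 and 462 FPKM in FLM_G, 385, 455 and 403 in FLM_M, and 514, 559.6 and 536 in BMM. It fell in both fetal liver cultures against BMM, by 0.28 in FLM_G (SE 0.07, adjusted p = 0.00801) and by 0.38 in FLM_M (SE 0.07, adjusted p = 0.00269), and the fetal liver cultures overlapped. FLM_G differed from FLM_M in Aldoa by 0.10 (adjusted p = 0.24), by -0.39 without scaling (adjusted p = 0.000648) and by 0.16 when FLM_M replicate 2 was left out (adjusted p = 0.0484). Aldoc made up 12.7 ± 0.3% of aldolase FPKM in FLM_G, 0.026 ± 0.006% in FLM_M and 1.49 ± 0.07% in BMM.

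In the later steps of glycolysis, Tpi1 and Pkm separated all 3 groups, and Pkm had the highest FPKM of the members in each. That ranking leaves out the copies of sequence described below. With them added, Gapdh stood above Pkm, at 1339 against 502 FPKM in FLM_G, 1499 against 878 in FLM_M and 1749 against 1299 in BMM. Tpi1, triosephosphate isomerase (ENSMUSG00000023456, chromosome 6, 124810586 to 124814296, minus strand), was at 47.0, 54.95 and 57.2 FPKM in FLM_G, 121, 132 and 130.5 in FLM_M, and 204, 176 and 181 in BMM. Pkm, pyruvate kinase (ENSMUSG00000032294, chromosome 9, 59656368 to 59679375, plus strand), was at 475, 479.8 and 512 in FLM_G, 904, 829 and 838 in FLM_M, and 1259, 1274 and 1271 in BMM. Both genes were lowest in FLM_G and highest in BMM. Tpi1 fell by 1.80 in FLM_G against BMM (SE 0.09, limma adjusted p = 1.55e-07), by 0.54 in FLM_M against BMM (SE 0.09, adjusted p = 0.000995) and by 1.26 in FLM_G against FLM_M (SE 0.09, adjusted p = 1.56e-06). Pkm fell by 1.37 (SE 0.06, adjusted p = 4.64e-08), 0.57 (SE 0.06, adjusted p = 4.61e-05) and 0.81 (SE 0.06, adjusted p = 1.57e-06) in the same comparisons. On the deposited counts the fall of Pkm in FLM_M against BMM was not called (-0.071 and adjusted p = 0.879 with edgeR, -0.16 and adjusted p = 0.792 with DESeq2).

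Pgam1, phosphoglycerate mutase, followed another pattern and was low in FLM_M only. It was at 266, 269 and 271 FPKM in FLM_G, 126, 123 and 118 in FLM_M, and 271, 278 and 257 in BMM, so that FLM_G and BMM overlapped. Pgam1 changed by -1.13 in FLM_M against BMM (SE 0.05, limma adjusted p = 1.47e-07) and 1.13 in FLM_G against FLM_M (SE 0.05, adjusted p = 4.62e-08). In FLM_G against BMM it was 0.00 (SE 0.05, adjusted p = 0.989), and -0.42 without scaling (adjusted p = 4.51e-05). Pgk1, phosphoglycerate kinase and X-linked, was at 205, 202 and 204 in FLM_G, 142, 135 and 144 in FLM_M, and 287, 273 and 267 in BMM. BMM was highest and FLM_M lowest, with no overlap. It fell by 0.43 in FLM_G against BMM (SE 0.05, adjusted p = 3.34e-05) and by 0.97 in FLM_M against BMM (SE 0.05, adjusted p = 3.61e-07). FLM_G exceeded FLM_M by 0.54 (SE 0.05, adjusted p = 7.1e-06), or by 0.05 without scaling (adjusted p = 0.348).

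Eno1, enolase, was at 88.0, 89.97 and 92.2 FPKM in FLM_G, 87.7, 91.8 and 87.6 in FLM_M, and 154, 160.3 and 155 in BMM. The fetal liver cultures overlapped and lay below BMM, with a limma log2 change of -0.79 in FLM_G (SE 0.04, adjusted p = 2.8e-07) and of -0.81 in FLM_M (SE 0.04, adjusted p = 6.33e-07), and differed from each other by 0.02 (adjusted p = 0.737), or by -0.47 without scaling (adjusted p = 5.26e-06). Eno2, the neuronal isozyme, stayed at or near 1 FPKM or below, with 0.0956, 0.103 and 0.0507 in FLM_G, 0.592, 0.733 and 0.632 in FLM_M, and 0.715, 0.909 and 1.00 in BMM. Its share of enolase was 0.093 ± 0.033% in FLM_G, 0.73 ± 0.06% in FLM_M and 0.56 ± 0.09% in BMM. Gapdh, glyceraldehyde 3-phosphate dehydrogenase, was at 136, 156 and 167 in FLM_G, 162, 142 and 169 in FLM_M, and 179, 208 and 206 in BMM. It was called lower in FLM_G against BMM (-0.37, SE 0.10, adjusted p = 0.01) and in FLM_M against BMM (-0.32, SE 0.10, adjusted p = 0.0281), and FLM_G and FLM_M overlapped (-0.04, adjusted p = 0.704, and -0.53 with adjusted p = 0.000775 without scaling). The FLM_M call was lost without scaling (-0.26, adjusted p = 0.0506) and in 4 of the 9 fits that left out 1 library, those without BMM replicate 2 (-0.29, adjusted p = 0.0887), BMM replicate 3 (-0.30, adjusted p = 0.08), FLM_M replicate 1 (-0.33, adjusted p = 0.0541) and FLM_M replicate 2 (-0.24, adjusted p = 0.0989).

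Gapdh, Eno1, Pgk1 and Pgam1 share much of their sequence with expressed copies, and their levels are uncertain for that reason. For Gapdh, 69 genes of at least 95% identity over at least 50% of the coding sequence were in the table, and these held 88.6% of the summed deposited FPKM of Gapdh and its copies in FLM_G, 89.5% in FLM_M and 88.7% in BMM. Copies held 54.2% in FLM_G, 52.9% in FLM_M and 54.0% in BMM for Eno1, 29.3% in FLM_G, 28.4% in FLM_M and 27.9% in BMM for Pgk1, and 22.8% in FLM_G, 25.1% in FLM_M and 26.0% in BMM for Pgam1. These shares differed little between the groups, and with copies added to their gene 1 member call changed: Gapdh in FLM_M against BMM was no longer called (-0.22, adjusted p = 0.0611). Separately, 16 of the 34 members overlap an annotated gene on the opposite strand, among them Pfkp (Pitrm1), Tpi1 (Spsb2), Pfkm (Senp1), Gapdh (Iffo1), G6pdx (Ikbkg), Rpe (Kansl1l) and Pdha1 (Map3k15). The labels do not say whether the authors' counting used strand, so reads of a member and its partner may not have been told apart.

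Lactate dehydrogenase and the lactate transporters at the end of the pathway were mostly lower than in BMM. Ldha, the form that favours lactate, was at 266, 261 and 274 FPKM in FLM_G, 201, 199 and 199 in FLM_M, and 392, 379 and 388 in BMM. Ldhb, the form of oxidative tissues, was at 7.81, 8.52 and 10.7 in FLM_G, 1.19, 1.70 and 1.23 in FLM_M, and 2.57, 2.22 and 2.46 in BMM. Neither gene overlapped between groups, but their order differed: BMM was highest in Ldha and FLM_G in Ldhb. Ldha fell by 0.53 in FLM_G against BMM (SE 0.04, limma adjusted p = 3.8e-06) and by 0.95 in FLM_M against BMM (SE 0.04, adjusted p = 1.94e-07). Its excess of 0.42 in FLM_G over FLM_M (SE 0.04, adjusted p = 1.74e-05) turned to -0.07 without scaling (adjusted p = 0.148). Ldhb rose by 1.54 in FLM_G against BMM (SE 0.12, adjusted p = 4.62e-06), fell by 0.53 in FLM_M against BMM (SE 0.12, adjusted p = 0.00706) and was 2.07 higher in FLM_G than in FLM_M (SE 0.12, adjusted p = 5.25e-07). The Ldhb share of the pair was 3.26 ± 0.46% in FLM_G, 0.68 ± 0.14% in FLM_M and 0.62 ± 0.04% in BMM, so Ldha remained the main gene in all groups.

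Slc16a3, the lactate exporter MCT4, was at 7.26, 8.29 and 8.19 FPKM in FLM_G, 9.46, 10.6 and 9.66 in FLM_M, and 25.2, 26.8 and 24.96 in BMM. The groups did not overlap, and BMM stood well above both others. It fell by 1.58 in FLM_G against BMM (SE 0.07, limma adjusted p = 5.86e-08), by 1.29 in FLM_M against BMM (SE 0.07, adjusted p = 6.13e-07) and by 0.29 in FLM_G against FLM_M (SE 0.07, adjusted p = 0.0036). On the deposited counts FLM_G was called higher than FLM_M instead (0.80 and adjusted p = 0.0232 with edgeR, 0.85 and adjusted p = 0.0471 with DESeq2), and the fall in FLM_G against BMM was not called (-0.35 and adjusted p = 0.358 with edgeR). Slc16a1, the transporter MCT1 that works in both directions, was at 5.81, 5.74 and 5.01 in FLM_G, 4.44, 4.43 and 4.06 in FLM_M, and 6.41, 6.41 and 6.08 in BMM. BMM was highest and FLM_M lowest, with no overlap. It fell by 0.46 in FLM_M against BMM (SE 0.07, adjusted p = 0.00051). In FLM_G against BMM it was -0.17 (SE 0.07, adjusted p = 0.0505), and was called with upper quartile scaling (-0.22, adjusted p = 0.0177) and without scaling (-0.52, adjusted p = 0.000131). In FLM_G against FLM_M it was 0.30 (SE 0.07, adjusted p = 0.00329), or -0.11 without scaling (adjusted p = 0.184). Slc16a3 made up 58.9 ± 3.3% of the pair in FLM_G, 69.7 ± 1.4% in FLM_M and 80.3 ± 0.5% in BMM.

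At the entry of pyruvate into mitochondria, Pdha1 had its highest FPKM in FLM_G. Pdha1, the X-linked catalytic subunit of pyruvate dehydrogenase, was at 63.5, 57.6 and 53.4 FPKM in FLM_G, 16.5, 15.6 and 16.5 in FLM_M, and 27.0, 26.0 and 24.8 in BMM. Each group was separate, and FLM_G and FLM_M lay on opposite sides of BMM. Its log2 fold change was 1.13 in FLM_G against BMM (SE 0.07, limma adjusted p = 6.89e-07), -0.64 in FLM_M against BMM (SE 0.07, adjusted p = 7.43e-05) and 1.78 in FLM_G against FLM_M (SE 0.07, adjusted p = 2.84e-08). On the deposited counts the rise in FLM_G against BMM was not called (0.13 and adjusted p = 0.725 with edgeR, 0.076 and adjusted p = 0.907 with DESeq2). Pdk1, a kinase that inhibits this enzyme, was at 9.26, 8.61 and 8.42 in FLM_G, 8.59, 7.81 and 8.20 in FLM_M, and 11.9, 9.69 and 10.7 in BMM. Both fetal liver cultures were below BMM, FLM_G by 0.26 (log2 fold change -0.26, SE 0.08, adjusted p = 0.0131) and FLM_M by 0.35 (-0.35, SE 0.08, adjusted p = 0.00544), and they overlapped each other (0.09, adjusted p = 0.339, and -0.35 with adjusted p = 0.00328 without scaling). The FLM_G call of Pdk1 was lost without FLM_G replicate 2 (-0.24, adjusted p = 0.0526) or FLM_G replicate 3 (-0.22, adjusted p = 0.056).

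The members of the oxidative arm of the pentose phosphate pathway were lower in FLM_M than in both other groups, and mixed in FLM_G against BMM. G6pdx, the X-linked glucose 6-phosphate dehydrogenase that starts the pathway and makes NADPH, was at 69.6, 71.5 and 75.1 FPKM in FLM_G, 46.1, 46.7 and 45.7 in FLM_M, and 92.0, 96.2 and 91.2 in BMM. Pgd, 6-phosphogluconate dehydrogenase and the second source of NADPH, was at 110.3, 116 and 121 in FLM_G, 47.9, 45.3 and 45.9 in FLM_M, and 106, 106 and 104 in BMM. FLM_M was lowest in both genes, whereas FLM_G was below BMM in G6pdx and just above it in Pgd. G6pdx fell by 0.37 in FLM_G against BMM (SE 0.04, limma adjusted p = 8.24e-05) and by 1.00 in FLM_M against BMM (SE 0.04, adjusted p = 2.41e-07), and was 0.63 higher in FLM_G than in FLM_M (SE 0.04, adjusted p = 1.81e-06). Pgd fell by 1.17 in FLM_M against BMM (SE 0.05, adjusted p = 1.15e-07) and was 1.30 higher in FLM_G than in FLM_M (SE 0.05, adjusted p = 1.7e-08). Its rise of 0.13 in FLM_G against BMM (SE 0.05, adjusted p = 0.0293) turned to -0.29 without scaling (adjusted p = 0.000289), was not called with upper quartile scaling (0.07, adjusted p = 0.211), and lost its call in 6 of the 9 fits that left out 1 library: those without BMM replicate 1 (adjusted p = 0.076), 2 (0.09) or 3 (0.112), FLM_M replicate 3 (0.0527), FLM_G replicate 2 (0.0506) or FLM_G replicate 3 (0.0568).

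Pgls, the lactonase between these dehydrogenases, was at 13.8, 16.2 and 17.6 FPKM in FLM_G, 12.4, 11.8 and 11.7 in FLM_M, and 14.4, 14.3 and 16.1 in BMM. FLM_G and BMM overlapped, with FLM_M below them. The log2 fold change was 0.08 in FLM_G against BMM (SE 0.09, limma adjusted p = 0.442), but 0.19 (adjusted p = 0.0418) without FLM_G replicate 1 and -0.32 (adjusted p = 0.00577) without scaling. In FLM_M against BMM it was -0.30 (SE 0.09, adjusted p = 0.0209), a call lost without BMM replicate 3 (-0.26, adjusted p = 0.0681), FLM_M replicate 2 (-0.28, adjusted p = 0.061) or FLM_M replicate 3 (-0.27, adjusted p = 0.0741). In FLM_G against FLM_M it was 0.38 (SE 0.09, adjusted p = 0.00379), or -0.08 without scaling (adjusted p = 0.407).

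Of the non-oxidative arm, Rpia, Tkt and Taldo1 were higher in FLM_G than in both other groups, Tkt and Taldo1 against BMM only with scaling. Rpia, ribose 5-phosphate isomerase, was at 8.31, 7.85 and 8.68 FPKM in FLM_G, 2.82, 3.08 and 3.23 in FLM_M, and 2.29, 2.65 and 2.19 in BMM. Tkt, transketolase, was at 111, 117 and 122 in FLM_G, 53.6, 55.8 and 51.4 in FLM_M, and 83.3, 86.1 and 81.2 in BMM. Taldo1, transaldolase, was at 354, 367 and 389 in FLM_G, 161, 189.8 and 176 in FLM_M, and 249.8, 249.9 and 253 in BMM. FLM_G was highest without overlap in all 3 genes, and FLM_M was lowest in Tkt and Taldo1 but above BMM in Rpia. Rpia rose by 1.46 in FLM_G against BMM (SE 0.07, limma adjusted p = 1.93e-07) and was 1.199 higher in FLM_G than in FLM_M (SE 0.07, adjusted p = 6.52e-07). Its rise of 0.26 in FLM_M against BMM (SE 0.07, adjusted p = 0.0177) was not called without BMM replicate 1 (0.24, adjusted p = 0.0605), BMM replicate 3 (0.21, adjusted p = 0.0746) or FLM_M replicate 3 (0.23, adjusted p = 0.0619).

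Tkt changed by 0.47 in FLM_G against BMM (SE 0.05, limma adjusted p = 4.37e-05), by -0.63 in FLM_M against BMM (SE 0.05, adjusted p = 1.5e-05) and by 1.10 in FLM_G against FLM_M (SE 0.05, adjusted p = 1.17e-07). Taldo1 changed by 0.56 (SE 0.07, adjusted p = 7.55e-05), -0.52 (SE 0.07, adjusted p = 0.000255) and 1.07 (SE 0.07, adjusted p = 7.45e-07) in the same comparisons. The rises of both in FLM_G against BMM were not called without scaling, where Tkt changed by 0.05 (adjusted p = 0.347) and Taldo1 by 0.13 (adjusted p = 0.075). Rpe, ribulose 5-phosphate epimerase, was at 7.03, 22.2 and 18.1 FPKM in FLM_G, 15.4, 15.2 and 5.25 in FLM_M, and 5.34, 4.69 and 4.95 in BMM. FLM_M replicate 3 lay among the BMM libraries and FLM_G replicate 1 not far above them, while the other fetal liver libraries were much higher. The log2 fold change of 1.35 in FLM_G against BMM (SE 0.46, adjusted p = 0.0273) lost its call without scaling (0.97, adjusted p = 0.0813), without the filter on low values (adjusted p = 0.0537), and without BMM replicate 1 (adjusted p = 0.0566), 2 (0.0677) or 3 (0.0624), FLM_G replicate 2 (0.0879) or FLM_G replicate 3 (0.0785). In FLM_M against BMM it was 0.98 (SE 0.46, adjusted p = 0.116), and leaving out FLM_M replicate 3 gave 1.45 (adjusted p = 0.023). In FLM_G against FLM_M it was 0.37 (SE 0.46, adjusted p = 0.495). The deposited counts called Rpe lower in FLM_G against BMM (-0.69 and adjusted p = 0.042 with edgeR, -0.75 and adjusted p = 0.0401 with DESeq2) and against FLM_M (-1.60 and adjusted p = 8.25e-07 with edgeR), and higher in FLM_M against BMM (0.91 and adjusted p = 0.006 with edgeR).

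Summed over genes, the FPKM of the pathways differed between the cultures. Genes of high FPKM weigh most in these sums, with Pkm the highest in the glycolytic sum and Taldo1 in the pentose phosphate sum. The glycolytic genes from Gpi1 to Pkm, all isozymes included, summed to 1890 ± 76 FPKM in FLM_G, 2045 ± 23 in FLM_M and 3137 ± 42 in BMM. The pentose phosphate enzymes summed to 714 ± 38 in FLM_G, 349 ± 17 in FLM_M and 555 ± 4 in BMM. Both sums depend on the scaling between libraries. Without scaling, of the pentose phosphate enzymes only Rpia was called higher in FLM_G against BMM, and G6pdx, Pgd and Pgls were called lower. As a share of both sums, which does not depend on the scaling, the pentose phosphate enzymes made up 27.0%, 27.6% and 27.6% in the FLM_G libraries, 14.1%, 15.3% and 14.4% in FLM_M, and 15.1%, 14.9% and 15.0% in BMM. FLM_G was above all other libraries, and FLM_M and BMM overlapped. With near copies added to the glycolytic genes the shares were 17.5% in FLM_G, 8.82% in FLM_M and 9.81% in BMM, with FLM_G again the highest.

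Further genes of sugar metabolism, from lists of transporters, branch enzymes and hypoxia genes, extend this account. All list counts below are to be read beside the shares of all genes tested. These were 33.8% higher and 34.1% lower in FLM_G against BMM, 22.7% and 21.9% in FLM_M against BMM, and 35.5% and 35.1% in FLM_G against FLM_M. A split near these shares says nothing particular about its list. The shares are those with scaling and do not apply to the counts without it. Without scaling the median gene moved by -0.34 in FLM_G against BMM and -0.39 in FLM_G against FLM_M. Of 13 other transport and glycolysis genes tested, 4 were higher and 5 lower in FLM_G against BMM (3 and 9 without scaling), 6 higher and 3 lower in FLM_M against BMM, and 4 higher and 5 lower in FLM_G against FLM_M. Slc2a6, a lysosomal hexose transporter, averaged 24.4 ± 1.2 FPKM in FLM_G, 12.2 ± 0.6 in FLM_M and 6.51 ± 0.66 in BMM, with log2 fold changes of 1.76 in FLM_G against BMM (limma adjusted p = 5.79e-08) and 0.82 in FLM_M against BMM (adjusted p = 2.66e-05). Tigar, a fructose bisphosphatase that favours the pentose phosphate pathway, averaged 17.3 ± 1.0 in FLM_G, 9.01 ± 0.28 in FLM_M and 7.08 ± 0.24 in BMM (FLM_G against BMM 1.18, adjusted p = 1.56e-07). Galm, the mutarotase of galactose and glucose, was highest in FLM_M, at 5.67 ± 0.19 in FLM_G, 13.4 ± 0.3 in FLM_M and 6.75 ± 0.16 in BMM (FLM_G against FLM_M -1.11, adjusted p = 6.95e-08). Slc2a3, the GLUT3 transporter, which was chosen after its values were seen, was at 0.0118, 0.0165 and 0.0282 in FLM_G, 0.0174, 0.0464 and 0.0442 in FLM_M, and 3.58, 3.79 and 3.56 in BMM, so that BMM was well above both fetal liver cultures.

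Around pyruvate, 6 of 11 other genes tested were higher and 3 lower in FLM_G against BMM (2 and 5 without scaling), 1 higher and 3 lower in FLM_M against BMM (2 and 3 without scaling), and 6 higher and 1 lower in FLM_G against FLM_M (4 and 5 without scaling). Pdk2, another kinase of pyruvate dehydrogenase, averaged 6.48 ± 0.69 FPKM in FLM_G, 2.48 ± 0.34 in FLM_M and 2.11 ± 0.21 in BMM (FLM_G against BMM 1.27, limma adjusted p = 4.66e-06). Pdk3 averaged 12.2 ± 0.6 in FLM_G, 6.89 ± 0.76 in FLM_M and 6.73 ± 0.38 in BMM (FLM_G against BMM 0.78, adjusted p = 3.16e-05). Of the gluconeogenesis genes 4 of 8 were tested, with 3 higher and 1 lower in FLM_G against BMM, 1 higher in FLM_M against BMM, and 3 higher and 1 lower in FLM_G against FLM_M. Pcx, pyruvate carboxylase, averaged 7.16 ± 0.35 in FLM_G, 1.90 ± 0.19 in FLM_M and 1.41 ± 0.13 in BMM (FLM_G against BMM 1.76, adjusted p = 3.91e-08), and Pck2, the mitochondrial phosphoenolpyruvate carboxykinase, 5.58 ± 0.19 in FLM_G, 12.6 ± 1.3 in FLM_M and 11.0 ± 0.6 in BMM (FLM_G against BMM -0.87, adjusted p = 1.01e-05). Fbp1, Fbp2, G6pc and Pck1, further genes of gluconeogenesis, were at 0 in all libraries.

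Of 8 other pentose phosphate genes tested, 4 were higher and 3 lower in FLM_G against BMM (1 and 4 without scaling), 1 was called, lower, in FLM_M against BMM (3 higher and 1 lower without scaling), and 4 higher and 3 lower in FLM_G against FLM_M (2 and 4 without scaling). Prps1, which makes phosphoribosyl pyrophosphate from ribose 5-phosphate, was 0.86 higher in FLM_G than in FLM_M (log2, limma adjusted p = 6.55e-06). Rbks, ribokinase, was 0.91 lower in FLM_G than in FLM_M (log2 fold change -0.91, adjusted p = 7.17e-06). H6pd changed more but with a larger error, by -1.56 in FLM_G against FLM_M (SE 0.43, limma adjusted p = 0.01025). In FLM_G against BMM it changed by -1.09 (SE 0.43, limma adjusted p = 0.0494). These genes therefore did not all move with Tkt and Taldo1.

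Among 18 genes of glycogen and other sugar branches, 8 were higher and 7 lower in FLM_G against BMM (2 and 9 without scaling), 4 higher and 9 lower in FLM_M against BMM, and 9 higher and 5 lower in FLM_G against FLM_M, a split that turned to 3 higher and 10 lower without scaling. Pygl, the liver glycogen phosphorylase (ENSMUSG00000021069, GRCm38 chromosome 12, 70190811 to 70231488, minus strand), was at 84.6, 79.8 and 83.0 FPKM in FLM_G, 0.216, 0.126 and 0.109 in FLM_M, and 10.8, 10.9 and 10.5 in BMM. As with Aldoc, FLM_G was highest, BMM between and FLM_M near 0. Its log2 fold change was 2.83 in FLM_G against BMM (SE 0.05, limma adjusted p = 3.63e-10), -3.35 in FLM_M against BMM (SE 0.05, adjusted p = 7.8e-10) and 6.18 in FLM_G against FLM_M (SE 0.05, adjusted p = 4.99e-12). Pygb, the brain form of the enzyme, averaged 6.55 ± 0.33 in FLM_G, 14.1 ± 1.6 in FLM_M and 16.4 ± 0.7 in BMM (FLM_G against BMM -1.202, adjusted p = 1.54e-06). Gbe1, the glycogen branching enzyme, averaged 2.10 ± 0.16 in FLM_G, 1.56 ± 0.25 in FLM_M and 5.08 ± 0.22 in BMM (FLM_M against BMM -1.25, adjusted p = 3.09e-06).

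**Figure D5:**
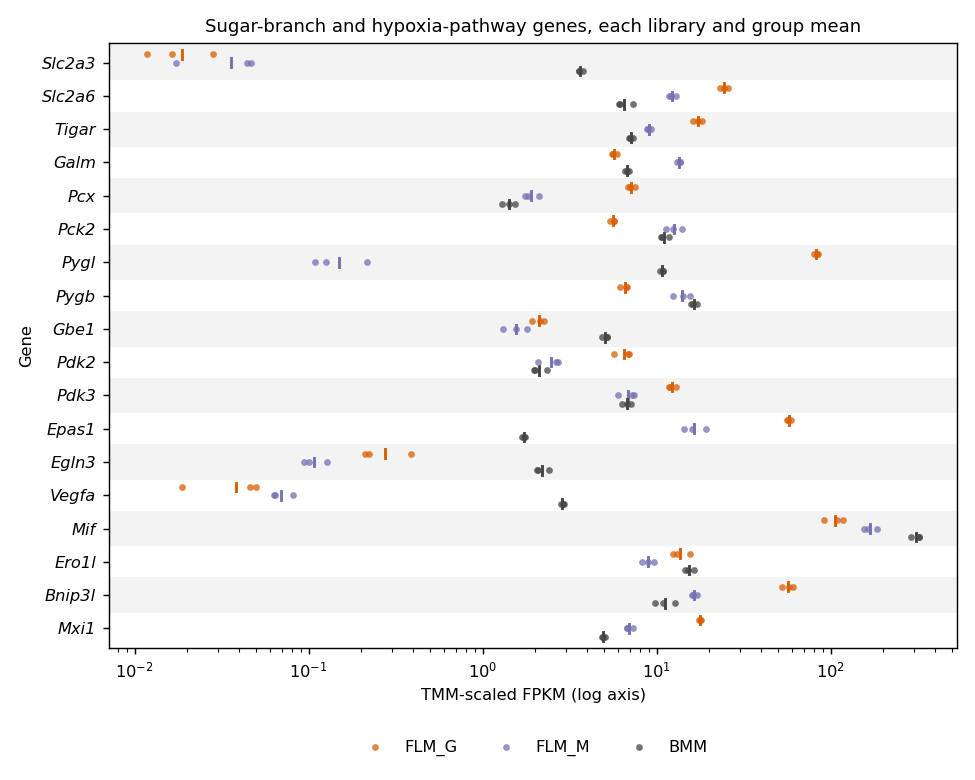
Scaled FPKM (log axis) of further genes of sugar branches and the hypoxia pathway; points are the 3 libraries of FLM_G, FLM_M and BMM and short vertical lines the group means. Pygl averages 82.5 FPKM in FLM_G, 0.15 in FLM_M and 10.7 in BMM, and Epas1 57.4 in FLM_G, 16.5 in FLM_M and 1.72 in BMM.

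The hypoxia genes went in more than 1 direction while Hif1a and Bnip3 were low in the fetal liver cultures. Epas1, which codes for HIF-2 alpha (ENSMUSG00000024140, chromosome 17, 86753700 to 86833410, plus strand), was at 56.7, 59.4 and 56.1 FPKM in FLM_G, 19.2, 14.3 and 16.0 in FLM_M, and 1.73, 1.68 and 1.75 in BMM. Its order of groups was the reverse of that of Bnip3, and no groups overlapped. Epas1 rose by 4.42 on the log2 scale in FLM_G against BMM (SE 0.09, limma adjusted p = 6.5e-10), by 2.67 in FLM_M against BMM (SE 0.09, adjusted p = 5.4e-08) and by 1.75 in FLM_G against FLM_M (SE 0.09, adjusted p = 2.5e-07). Of 7 HIF regulators tested, 2 were higher and 1 lower in FLM_G against BMM (1 and 4 without scaling), 1 higher and 3 lower in FLM_M against BMM, and 5 higher and none lower in FLM_G against FLM_M (1 and 2 without scaling).

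Of 14 other HIF targets tested, 3 were higher and 9 lower in FLM_G against BMM, 4 higher and 8 lower in FLM_M against BMM, and 4 higher and 7 lower in FLM_G against FLM_M (2 and 9 without scaling). Mif, a cytokine gene, averaged 106 ± 13 FPKM in FLM_G, 168 ± 14 in FLM_M and 311 ± 17 in BMM (FLM_G against BMM -1.55, limma adjusted p = 1.23e-06; FLM_M against BMM -0.89, adjusted p = 0.000119). Bnip3l, the close relative of Bnip3 in mitophagy, went the other way, with 56.9 ± 4.4 in FLM_G, 16.4 ± 0.6 in FLM_M and 11.2 ± 1.6 in BMM (FLM_G against BMM 2.25, adjusted p = 6.62e-08). Mxi1, a MYC antagonist, averaged 17.7 ± 0.2 in FLM_G, 6.95 ± 0.36 in FLM_M and 4.95 ± 0.10 in BMM (FLM_G against BMM 1.65, adjusted p = 6.98e-09). Ero1l, an oxidase of protein folding, averaged 13.7 ± 1.6 in FLM_G, 8.97 ± 0.70 in FLM_M and 15.4 ± 0.9 in BMM (FLM_M against BMM -0.72, adjusted p = 0.000199). Vegfa, the vascular growth factor, and Egln3, a prolyl hydroxylase induced by HIF, were chosen after their values were seen. Vegfa averaged 0.038 ± 0.017 in FLM_G, 0.0695 ± 0.0106 in FLM_M and 2.88 ± 0.06 in BMM, and Egln3 0.27 ± 0.10 in FLM_G, 0.11 ± 0.02 in FLM_M and 2.18 ± 0.19 in BMM, both far higher in BMM.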

How the data were processed

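RNA of the 9 libraries was sequenced from stranded mRNA libraries as single reads of 101 cycles. Per the submitters' processing notes the tools included HISAT2, StringTie and cutadapt, besides FastQC, bcl2fastq and DESeq2. GRCm38 and mm10 are the builds named there. The labels do not say what tool produced the counts or the FPKM, or whether strand was used. The authors deposited read counts per gene, not normalized, and FPKM per gene, with 1 column for each library. The counts summed to between 782400 and 1170813 per library, far below the 28560000 to 35680000 reads estimated from steps of the FPKM (40.3% to 48.3% of low values lay within 2% of a whole read). Some counts also stood apart from the FPKM: Pfkp, which overlaps Pitrm1 on the other strand, had a mean of 457 counts at 9.90 FPKM, and Pgam1 20.8 counts at 216 FPKM. FPKM were therefore the main measure and counts an alternative. The choice also drew on an earlier account in which the counts of this series follow the opposite strand, which was not tested here.

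The deposited FPKM were scaled by TMM factors (edgeR 4.0.16) of 0.80 to 1.14. The 11952 genes that reached 1 FPKM in 3 or more libraries entered a limma 3.58.1 fit (trend, R 4.3.3) of log2(FPKM + 1) on the 3 groups, with 6 residual degrees of freedom and Benjamini-Hochberg adjustment. Isozyme shares were compared with exact 2-sided permutation tests (SciPy 1.17.1). Copies were found with BLAST 2.17.0 on GENCODE M21 (GRCm38) coding sequences, and 45143 of the 46078 identifiers were found in that annotation. The fit was tested on simulated data. Libraries correlated across genes at 0.986 to 0.992 within groups and 0.785 to 0.936 between groups.

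All 34 members are named. Per library values are given for isozymes, transporters, pentose phosphate genes and the largest changes, and up to 3 called genes with at least 5 FPKM per further list and comparison could be named. The members and lists were chosen with earlier results of these data known. Alternatives were RLE, upper quartile or no scaling, other filters (none, or 5 FPKM), 0.1 as pseudocount, fits of the 6 libraries of a comparison alone, a replicate block, limma's test of a change beyond 1.5-fold, count models on the deposited counts (edgeR; DESeq2 1.42.0), each library left out, and near copies added to their gene, the last chosen after seeing the data.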

Additional observations from a re-analysis of the deposited data

How the results depend on the processing

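RLE scaling and a pseudocount of 0.1 changed no call among the 99 results of the members, and a filter of 5 FPKM none of 93, Pfkfb3 and Pfkfb4 not being tested there. Without scaling, members called higher in FLM_G against BMM numbered 5, and members called lower in FLM_G against FLM_M 14; the log2 fold changes that turned were, in FLM_G against BMM, Pgam1 (-0.42), Slc2a1 (-0.26), Pgd (-0.29) and Pgls (-0.32), and in FLM_G against FLM_M, Pdk1 (-0.35), Aldoa (-0.39), Pgls (-0.076), Slc16a1 (-0.11), Ldha (-0.067) and Eno1 (-0.47). Against a 1.5-fold change, the limma test called 4 members higher and 9 lower in FLM_G against BMM, 0 and 11 in FLM_M against BMM (3 and 25 in the limma test against no change), and 9 and 4 in FLM_G against FLM_M. On the counts, edgeR called 4 higher and 6 lower in FLM_G against BMM, and 7 and 4 in FLM_G against FLM_M. In FLM_M against BMM edgeR called 5 lower, and Rpe was among those called higher (0.91, adjusted p = 0.006). DESeq2 called 5 and 6 in FLM_G against BMM, 1 and 6 in FLM_M against BMM, and 7 and 4 in FLM_G against FLM_M. Values on the counts opposite in sign to a call on the FPKM, or called in the opposite direction (edgeR, then DESeq2), were, in FLM_G against BMM, Pfkp (0.23, 0.20), Rpe (-0.69, -0.75), Pfkm (0.41, 0.41) and Gapdh (0.18, 0.13); in FLM_M against BMM, Hk2 (0.22, 0.14), Slc2a1 (0.26, 0.19), Gapdh (0.13, 0.044) and, in DESeq2, Ldhb (0.33); and in FLM_G against FLM_M, Pfkp (0.10, 0.16), Slc16a3 (0.80, 0.85), Rpe (-1.60, -1.57) and, in DESeq2, Bnip3 (0.31). Of these, Rpe in FLM_G against BMM and both Rpe and Slc16a3 in FLM_G against FLM_M were called in the opposite direction by both tools. Of results not called on the FPKM, 8 with edgeR and 9 with DESeq2 changed sign, Rpe in FLM_G against FLM_M included. The cause was not tested, nor was the strand of the counts. Ldhb averaged 0.667 and Bnip3 4.44 counts a library. With Eno1b added to the family, the Eno2 share was 0.055% in FLM_G, 0.443% in FLM_M and 0.333% in BMM. Leaving out 1 library gave 7 to 11 members higher and 17 to 18 lower in FLM_G against BMM, 2 to 3 and 23 to 25 in FLM_M against BMM, and 15 to 16 and 8 in FLM_G against FLM_M. Shares of all genes called under these alternatives, or under the replicate block below, are not given. The member counts therefore say nothing particular about the members.

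Libraries of the same replicate number deviated from their group means together only weakly (correlations of -0.077 to 0.09), so the numbers were not taken to pair the samples. With the replicate block, 10 members were higher and 19 lower in FLM_G against BMM, 3 and 25 in FLM_M against BMM, and 16 and 8 in FLM_G against FLM_M. Under the block Pgd lost its call in FLM_G against BMM (adjusted p = 0.058), Slc16a1 gained one there (adjusted p = 0.0311), and Pfkfb4 gained one there (adjusted p = 0.0149) and in FLM_G against FLM_M (adjusted p = 0.0434). With 3 libraries a group, standard errors of the log2 changes were largest among the members for Pfkfb3 (0.51) and Rpe (0.46).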
